A study of Mus musculus with 6 samples.

Results

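The genes described here are 10 genes of the bone morphogenetic protein (BMP) arm of TGF-beta family signalling: the ligand genes Bmp2, Bmp4 and Bmp7, the receptor gene Bmpr1a, the target genes Id1, Id2, Id3 and Id4, and the genes of the inhibitors Bambi and Grem1. They were chosen by gene name, each matched 1 row of the 35275 genes listed, and all 10 were among the 15720 genes with enough counts to be tested. RNA had been sequenced from the epithelial region of the back skin of C57BL/6 mice, in 3 libraries of IL-33 KO mice, which lack the epithelial alarm cytokine interleukin-33, and 3 libraries of wild-type (WT) mice. Every mouse, WT mice included, had received the contact allergen DNFB at 0.25% in acetone and olive oil on the back 3 times a week for 22 days, so there was no untreated skin. How the Il33 allele was made and the sex and age of the mice are not given in the sources used here. Nothing in the labels states that each library came from a separate mouse, and the p-values then rest only on how far libraries of a genotype differed.

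BMPs are secreted dimers that bring together type I and type II receptor kinases, which phosphorylate the receptor-regulated SMADs. With their partner SMAD4 these enter the nucleus and switch on targets, of which the Id genes are the best known. Id proteins have a helix-loop-helix domain but no DNA-binding region, and they hold E proteins away from DNA. Bambi is a membrane protein that resembles a type I receptor without the kinase, and Gremlin-1, the product of Grem1, binds BMPs outside the cell. In skin, BMP signals keep hair follicle stem cells at rest and are needed for the matrix of a growing follicle to form the hair shaft and inner root sheath, and Bmp4 is a known product of the dermal papilla.

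The 3 promoters below show what lies just upstream of a ligand gene with a higher mean in IL-33 KO (Bmp4), an inhibitor gene with a lower mean (Grem1) and an Id gene whose groups overlapped (Id2). Each is the 250 bases before the RefSeq start site in build GRCm38.p6, read on the gene's strand. Capitals mark GGCGCC, the GC-rich core that BMP-responsive SMADs prefer, and CAGAC, the classical SMAD box, each searched on both strands.
Bmp4, chr14:46390670-46390919, minus strand: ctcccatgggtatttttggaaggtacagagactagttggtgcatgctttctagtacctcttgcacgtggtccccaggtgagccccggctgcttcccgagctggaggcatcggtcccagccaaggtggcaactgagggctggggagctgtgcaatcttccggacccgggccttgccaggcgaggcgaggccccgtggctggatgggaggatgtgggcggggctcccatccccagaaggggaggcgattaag
Grem1, chr2:113758649-113758898, minus strand: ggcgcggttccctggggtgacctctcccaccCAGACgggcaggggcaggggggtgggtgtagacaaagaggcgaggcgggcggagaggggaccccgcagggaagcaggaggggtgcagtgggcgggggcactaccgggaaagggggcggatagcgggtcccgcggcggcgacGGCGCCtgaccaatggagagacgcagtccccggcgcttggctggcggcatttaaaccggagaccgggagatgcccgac
Id2, chr12:25096093-25096342, minus strand: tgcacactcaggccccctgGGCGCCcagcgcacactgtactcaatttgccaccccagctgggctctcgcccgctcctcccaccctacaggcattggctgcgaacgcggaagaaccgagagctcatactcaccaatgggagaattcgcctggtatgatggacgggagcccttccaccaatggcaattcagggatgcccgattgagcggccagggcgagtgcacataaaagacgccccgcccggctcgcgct
Windows were found for 6 of the 10 genes: Bmp4, Bmpr1a, Grem1, Id2, Id3 and Id4. GGCGCC stood in 4 of them, 78 bases before the start in Grem1, 231 in Id2, 148 in Id4 and 198 in Bmpr1a, and in 9.59% of the 32851 windows of this length in the table. CAGAC stood in 2 of them, Grem1 and Id3, and in 42.2% of all windows. Distances are to the RefSeq start, which differs from the listed gene start for Grem1, Bmpr1a, Id3 and Id4. For Grem1 the difference is small: the window reaches 113758649, and the listed start on the minus strand is 113758646. The Bmpr1a and Id3 windows lie inside the listed genes. The Id4 window ends at 48261115, before the listed start at 48261427. The 6 windows were 62.8% to 78.8% GC, against a median of 52.4% over all windows, and the part of base composition in the GGCGCC matches was not tested. The Bmp4 window held neither motif.

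The libraries held 20459574 to 24359612 counts. Il33 had 11 to 22 counts in the IL-33 KO libraries and 2817 to 3906 in WT, as the labels name them. The keratinocyte genes Krt5 (7789 to 11988 CPM, the counts scaled to library size) and Krt14 (12651 to 28810) were abundant in all 6 libraries. The pieces were not pure epithelium, since the fibroblast collagen gene Col1a1 stood at 3520 to 6244 CPM and the endothelial gene Pecam1 at 62.7 to 91.2. WT 3 stood apart from the other WT libraries: over all genes, the chi-square per degree of freedom between 2 libraries' counts was 107 between WT 3 and WT 1 and 96.4 between WT 3 and WT 2, but 58.3, 35.9 and 48.2 between WT 3 and IL-33 KO 1 to 3. WT 1 and WT 2 differed by 44.6. Without WT 3 edgeR called 24 genes in place of 3, and still 0 of the BMP arm genes. In such bulk tissue, fewer cells of a type and less RNA per cell cannot be told apart.

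The comparison of IL-33 KO with WT asked which genes are regulated differently without IL-33 in chronically inflamed skin. Bambi, Bmp4 and Bmp2 had higher means in IL-33 KO, by 2.61-fold, 2.74-fold and 1.46-fold, and Grem1 was lower, at 70.2% of WT. Bmp7 and Bmpr1a were nearly level, and 0 of the 4 Id genes reached an unadjusted p under 0.05: the means of Id2 and Id3 were higher and those of Id1 and Id4 lower, with the sign turning for Id2 without IL-33 KO 1 or without WT 2 (log2 fold change -0.017 and -0.013) and for Id4 without IL-33 KO 3 (0.012). In edgeR's quasi-likelihood test 0 of the 10 passed an adjusted p of 0.05, a threshold that 0.0191% of all tested genes passed. At an unadjusted p under 0.05 there were 4 (Bmp2, Bmp4 and Bambi higher, Grem1 lower), where 9.02% of all genes met this limit. DESeq2 called 1 of the 10, Bambi, against 1.31% of all genes (1.01% of genes were called higher), and limma-voom called 0. The CPM values of Bmp2, Bambi and Grem1 did not overlap between the genotypes, 3 of 10 genes, where 13.9% of all tested genes had no overlap, 7.46% higher and 6.47% lower in IL-33 KO. The mean was higher in 7 of the 10 genes, and the log2 fold change was above 0 in 48.0% of all tested genes. The median log2 fold change was 0.15 for the 10 genes and -0.01 for all tested genes.

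**Figure D1:**
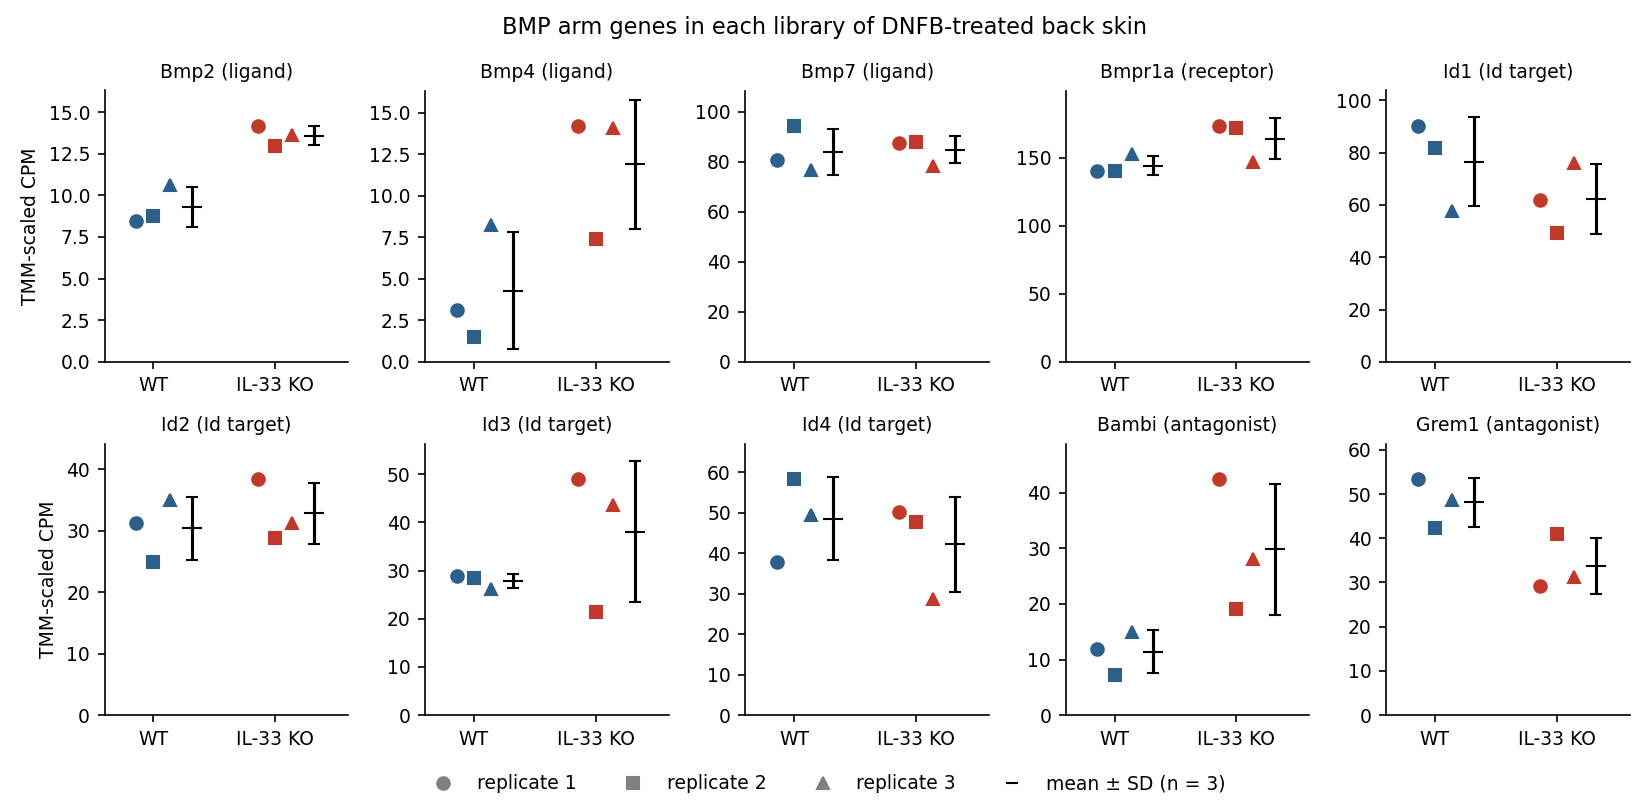
CPM of each BMP arm gene (vertical axes from 0) in the 3 WT (blue) and 3 IL-33 KO (red) libraries, with symbols for replicates and a bar for the mean ± SD. Bmp2 and Bambi lie higher in every IL-33 KO library, Grem1 lies lower in each, and the groups of the other 7 genes overlap.

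Bmp4 (chromosome 14, 46383520 to 46390669, minus strand), the dermal papilla ligand, stood at 14.2, 7.38 and 14.1 CPM across IL-33 KO 1 to 3, against 3.12, 1.53 and 8.24 across WT 1 to 3. IL-33 KO 1 and 3 were the highest libraries, and the groups overlapped because WT 3 lay above IL-33 KO 2. The log2 fold change was 1.46 ± 0.55 (SE; edgeR adjusted p 0.521). The WT libraries differed among themselves by up to 5.39-fold, the widest spread within a genotype among the 10 genes. Without WT 3 the log2 fold change was 2.36, with an adjusted p of 0.0620, and without WT 2 it was 1.05.

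Bmp2 (chromosome 2, 133552159 to 133562885, plus strand), a ligand that shares receptors with Bmp4, stood at 14.2, 13.0 and 13.6 CPM across IL-33 KO 1 to 3, against 8.47, 8.73 and 10.6 across WT 1 to 3. The groups did not overlap, and the libraries of each genotype lay close together. The log2 fold change was 0.55 ± 0.15 (SE), a fold of 1.46 with a 95% interval of 1.14 to 1.87, and the adjusted p was 0.434 in edgeR. Without WT 3 the log2 fold change was 0.66 (adjusted p 0.110 in edgeR). Permuting the 6 Bmp2 values in an exact two-sided test gave p = 0.1, as it did for Bambi and Grem1, and 3 against 3 libraries cannot go lower.

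Bmp7 (chromosome 2, 172868012 to 172940321, minus strand), a ligand that epidermal cells make, stood at 87.6, 88.1 and 78.5 CPM across IL-33 KO 1 to 3, against 80.5, 94.3 and 76.6 across WT 1 to 3. WT 2 was the highest library and WT 3 the lowest, so the IL-33 KO values fell inside the WT range. The IL-33 KO level was 101.1% of WT, with a 95% interval of the fold from 0.830 to 1.23 (edgeR adjusted p 0.975).

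Bmpr1a (chromosome 14, 34410734 to 34503341, minus strand), the type I receptor through which follicles receive BMP signals, stood at 173, 172 and 147 CPM across IL-33 KO 1 to 3, against 140, 140 and 152 across WT 1 to 3. IL-33 KO 3 lay below WT 3, and the other IL-33 KO libraries lay above all of WT. The fold was 1.14, with a 95% interval of 0.936 to 1.38 (edgeR adjusted p 0.665).

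Among the Id genes, Id3 (chromosome 4, 136143497 to 136145755, plus strand) stood at 49.0, 21.4 and 43.7 CPM across IL-33 KO 1 to 3, against 28.9, 28.5 and 26.2 across WT 1 to 3. IL-33 KO 2 was the lowest of all 6 libraries and IL-33 KO 1 and 3 were the highest, while the WT libraries differed by no more than 1.10-fold. The log2 fold change was 0.45 ± 0.27 (SE; adjusted p 0.643 in edgeR), and leaving out IL-33 KO 2 gave 0.73, leaving out IL-33 KO 1 gave 0.22. Id1 (chromosome 2, 152736251 to 152737410, plus strand) stood at 61.8, 49.2 and 76.0 CPM across IL-33 KO 1 to 3, against 90.2, 81.8 and 57.6 across WT 1 to 3. WT 1 and 2 were above all IL-33 KO libraries, and WT 3 lay between IL-33 KO 2 and 1. The log2 fold change of Id1 was -0.30 ± 0.21 (SE; adjusted p 0.687 in edgeR), and without WT 3 it was -0.47.

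Id2 (chromosome 12, 25093801 to 25096092, minus strand), which in skin also serves Langerhans cells and innate lymphoid cells, stood at 38.4, 28.8 and 31.3 CPM across IL-33 KO 1 to 3, against 31.2, 24.9 and 35.1 across WT 1 to 3. Id4 (chromosome 13, 48261427 to 48264036, plus strand) stood at 50.3, 47.7 and 28.8 CPM across IL-33 KO 1 to 3, against 37.8, 58.3 and 49.4 across WT 1 to 3. The groups of both genes overlapped, and IL-33 KO 3 was the lowest library of Id4. The fold was 1.08 (95% interval 0.826 to 1.41) for Id2 and 0.871 (0.596 to 1.27) for Id4, with adjusted p of 0.850 and 0.802 in edgeR.

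Bambi (chromosome 18, 3507957 to 3516404, plus strand), the pseudoreceptor whose gene BMP signals also induce, stood at 42.5, 19.0 and 28.1 CPM across IL-33 KO 1 to 3, against 11.9, 7.29 and 15.0 across WT 1 to 3. All IL-33 KO libraries were above all WT libraries, with IL-33 KO 1 well above the rest. The log2 fold change was 1.39 ± 0.34 (SE), a fold of 2.61 with a 95% interval of 1.52 to 4.51. The adjusted p was 0.380 in edgeR and 0.00665 in DESeq2. Without WT 3 the log2 fold change was 1.64, with an adjusted p of 0.0949 in edgeR. Bambi had the smallest p of the 10 genes, rank 147 of 15720.

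Grem1 (chromosome 2, 113746164 to 113758646, minus strand), the secreted inhibitor made by fibroblasts, stood at 29.2, 40.9 and 31.1 CPM across IL-33 KO 1 to 3, against 53.4, 42.4 and 48.7 across WT 1 to 3. The groups did not overlap, but IL-33 KO 2 and WT 2 were neighbours. The log2 fold change was -0.51 ± 0.16 (SE; 95% interval -0.88 to -0.14), with an adjusted p of 0.465 in edgeR, and without WT 3 it was -0.50. With total-count scaling the groups overlapped: in the deposited FPKM values, counts scaled by gene length and column total, IL-33 KO 2 stood at 9.88 and WT 2 at 9.60.

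Compared per length, in FPKM, Id1 was the most abundant of the 10 genes (mean of all libraries 59.4), and its lowest library, at 42.5, lay above every library of the other 9. Id4 (27.4), Id3 (26.0), Bmpr1a (26.0), Id2 (25.0) and Bmp7 (22.9) followed at levels whose libraries overlapped. Grem1 (9.82) came next and overlapped Bambi through IL-33 KO 1, and Bambi (4.19), Bmp4 (4.02) and Bmp2 (3.24) were lowest and overlapped each other. Bmp7 made up 66.8% to 76.8% of the summed FPKM of the 3 ligands in IL-33 KO and 74.9% to 88.9% in WT. The share of Bmp4 was 19.8%, 11.5% and 21.3% across IL-33 KO 1 to 3, against 5.86%, 2.56% and 14.3% across WT 1 to 3. These shares overlapped through WT 3 and IL-33 KO 2, as the Bmp4 levels did. The summed FPKM of the 4 Id genes was 139 ± 26.5 (SD, n = 3) for IL-33 KO and 137 ± 2.73 (SD, n = 3) for WT, so the WT libraries had nearly the same sum while IL-33 KO ranged from 111 to 163.

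**Figure D2:**
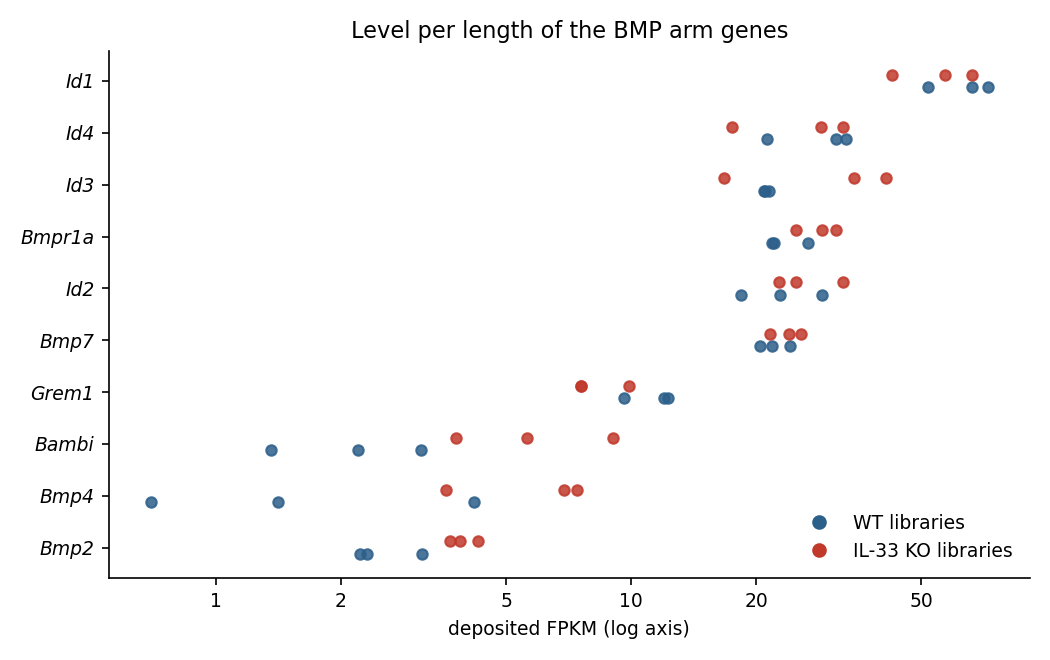
Deposited FPKM (log axis) of the 10 genes, ordered by their mean, with 1 point per library (WT blue, IL-33 KO red). Id1 lies above the other genes in all libraries, and Bambi, Bmp4 and Bmp2 lie lowest, with Bmp4 spread from 0.696 in WT 2 to 7.39 in IL-33 KO 1.

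The rest of the pathway was followed in 56 further genes, of which 45 were tested, 31 with a higher and 14 with a lower mean in IL-33 KO. In edgeR 0 of these 45 passed the adjusted threshold, and 13 were higher and 1 lower at an unadjusted p under 0.05, where 4.87% of all genes were higher and 4.15% lower. DESeq2 called 8 higher and 1 lower, where it called 1.31% of all genes in either direction, and limma-voom called 0. The median log2 fold change of the 45 was 0.15. These genes were chosen with earlier results of these data known.

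Of the other ligand genes 3 of 11 had enough counts, and 0 passed in edgeR. Bmp6 stood at 5.44, 4.98 and 4.69 CPM across IL-33 KO 1 to 3, against 2.67, 3.14 and 4.06 across WT 1 to 3, without overlap (adjusted p 0.519 in edgeR). Bmp8a stood at 6.66, 2.91 and 3.24 CPM against 0.605, 0.0437 and 1.93 (adjusted p 0.504 in edgeR), and its reads may be shared with its close copy Bmp8b. Of the 9 tested receptor and co-receptor genes, 5 had higher and 4 lower means, 0 passed in edgeR, DESeq2 or limma-voom, 0 reached an unadjusted p under 0.05, and their median log2 fold change was 0.01. Endoglin (Eng), a co-receptor of endothelial cells, and the type I receptor gene Acvr1 had the smallest p, with log2 fold changes of -0.21 and -0.19 (adjusted p 0.647 and 0.654 in edgeR).

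Of the 8 SMAD and regulator genes, 7 had higher means in IL-33 KO and 0 passed in edgeR. Smad6, which encodes an inhibitory SMAD that BMP signals induce, stood at 20.8, 10.9 and 13.0 CPM across IL-33 KO 1 to 3, against 7.41, 6.68 and 7.96 across WT 1 to 3. These groups did not overlap, and DESeq2 called Smad6 with an adjusted p of 0.0238. Smad5, a receptor-regulated SMAD gene, stood at 94.3, 92.5 and 84.8 CPM against 60.6, 62.4 and 83.7, with WT 3 just below IL-33 KO 3 (adjusted p 0.522 in edgeR).

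The 12 tested genes of other antagonists were split, 5 with higher and 7 with lower means. Nbl1 (DAN), which like Grem1 belongs to the DAN family of BMP-binding proteins, stood at 85.6, 104 and 99.4 CPM across IL-33 KO 1 to 3, against 138, 164 and 159 across WT 1 to 3. All IL-33 KO libraries were below all WT libraries (log2 fold change -0.67 ± 0.13 SE, adjusted p 0.264 in edgeR and 0.00362 in DESeq2). Bmper, which encodes an extracellular BMP-binding protein, was on the other side at 7.13, 3.21 and 4.84 CPM against 1.66, 1.83 and 2.29, again without overlap (adjusted p 0.365 in edgeR and 0.0165 in DESeq2).

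The 10 other genes listed as induced by BMP signals had a median log2 fold change of 0.91. Whether BMP signals induce each of them in this skin was not tested. Of the 10, 9 had higher means in IL-33 KO and 7 were higher without overlap, where 7.46% of all genes were. The list was chosen with earlier results of these data known, so this count is no test of BMP targets. Msx2, Dlx3, Foxn1, Hoxc13 and Lef1, 5 of these 7, are also in the list of hair matrix markers. Outside that list only Msx1 and Gata3 did not overlap. In edgeR 0 of the 10 passed, 7 were higher at an unadjusted p under 0.05, and DESeq2 called 6. Over all genes, 4.87% were higher at that unadjusted p in edgeR, and DESeq2 called 1.01% higher. Dlx3, a homeobox gene of hair and epidermal differentiation, stood at 193, 106 and 146 CPM across IL-33 KO 1 to 3, against 55.2, 47.5 and 64.0 across WT 1 to 3 (adjusted p 0.182 in edgeR). Gata3, a regulator of the inner root sheath lineage and of type 2 lymphocytes, stood at 97.6, 104 and 120 CPM against 50.7, 72.4 and 67.1 (adjusted p 0.302 in edgeR). Hey1 and Dlx5, also in this list, had log2 fold changes of 0.02 and -0.33 and were chosen after their values were seen. Of the E protein genes, whose products Id proteins bind, Tcf3 stood at 119, 113 and 118 CPM across IL-33 KO 1 to 3, against 85.8, 106 and 100.03 across WT 1 to 3, and Tcf12 had a log2 fold change of 0.05 (adjusted p 0.572 and 0.926 in edgeR).

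**Figure D3:**
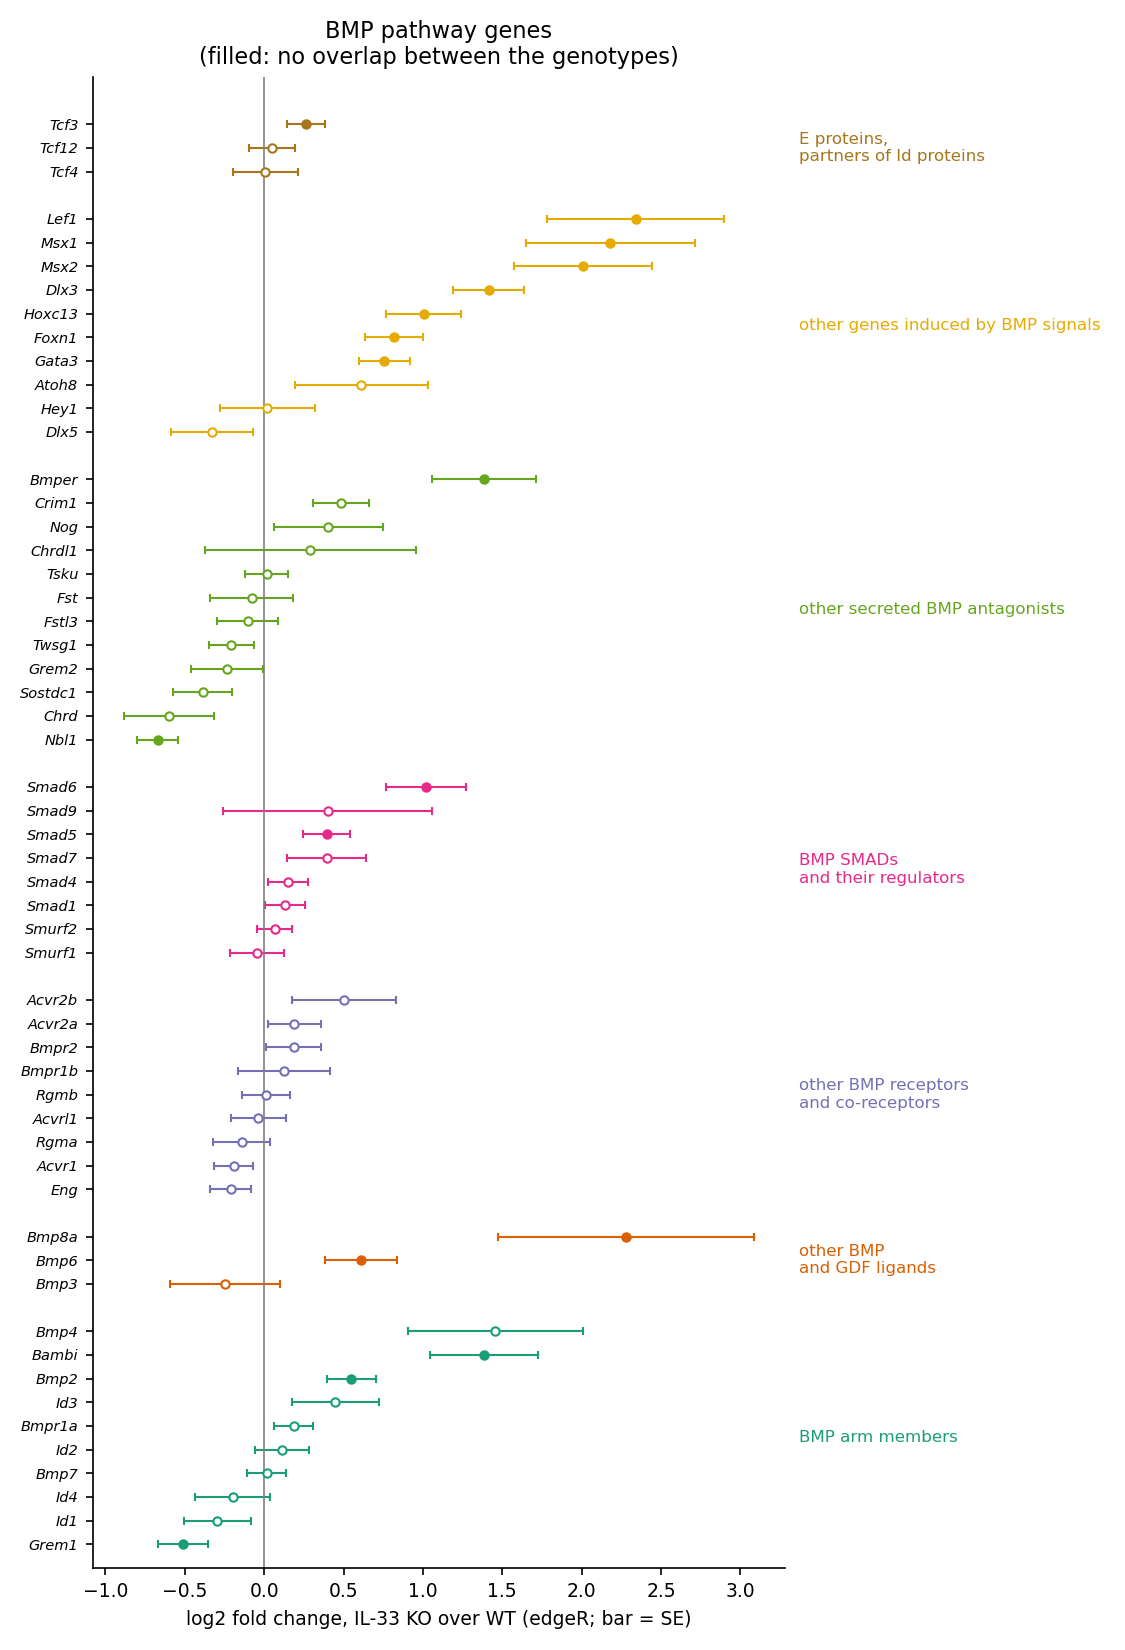
Log2 fold change of IL-33 KO over WT (horizontal axis; bars are SE) for the 10 BMP arm genes and the tested genes of the 6 other pathway lists, with filled points where the genotypes did not overlap. The list of other induced genes holds 7 filled points, more than any other list, from 0.76 for Gata3 to 2.34 for Lef1, while the receptor list has none. Of the genes in the induced list, 5 are also hair matrix markers.

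Of 11 tested hair shaft and inner root sheath markers, 11 were higher in every IL-33 KO library than in any WT library, with a summed level of 10595 to 21984 CPM in IL-33 KO and 2599 to 5829 in WT. In edgeR 0 of these 11 passed, 11 reached an unadjusted p under 0.05, DESeq2 called 7 and limma-voom 0. Over all tested genes, 7.46% were higher without overlap, 4.87% were higher at that unadjusted p in edgeR, and DESeq2 called 1.01% higher. The marker lists were chosen with earlier results of these data known. Of 8 hair matrix markers 7 were higher without overlap (summed level 354 to 533 CPM against 241 to 309), and 5 of the 8 are also in the list of induced genes. Of 10 tested dermal papilla markers 7 had higher means, 1 without overlap, and 3 had lower means. At an unadjusted p under 0.05 in edgeR 4 were higher (Corin, Alpl, Wif1 and Hhip) and 0 lower, and 0 passed. Corin, Alpl and Hhip were scarce, with group means of at most 3.05 CPM. The most abundant markers of this list, Crabp1 and Prdm1, were not higher. Their log2 fold changes were -0.63 and -0.0036 (edgeR adjusted p 0.602 and 0.997). The summed levels of the dermal papilla markers overlapped (149 to 203 CPM against 165 to 211). None of the listed markers that the table names was at 0 in all libraries, and Krt85 was not analysed here. As the mean log2 level of the hair shaft and inner root sheath list, relative to all 6 libraries, WT 2 was lowest at -2.001, followed by WT 1 at -0.97, WT 3 at -0.22, IL-33 KO 2 at 0.63, IL-33 KO 3 at 0.87 and IL-33 KO 1 at 1.68. Bambi ranked the libraries in the same order, from -1.26 in WT 2 to 1.27 in IL-33 KO 1. Bmp4 did not, since WT 3 (0.39) lay above IL-33 KO 2 (0.23). The part of the hair follicle content in the values of Bambi, Bmp4, Smad6 and the induced genes was not tested.

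Markers of other cell types gave other orders. The summed level of 8 endothelial markers, cells in which Id1, Id3 and Bambi are also expressed, was 182 to 227 CPM in IL-33 KO and 196 to 241 in WT. That of 8 fibroblast markers, cells that make Grem1, was 12022 to 14094 CPM in IL-33 KO and 12745 to 23046 in WT. Means were lower in 7 of the 8, and 2 were lower without overlap, where 6.47% of all genes were. Fibroblast levels were highest in WT 3, whereas Grem1 was highest in WT 1, and their part in the Grem1 values was not tested. Skeletal muscle markers had summed levels of 125 and 260 CPM in IL-33 KO 1 and 3, 12.8 in IL-33 KO 2 and at most 9.83 in WT. Bmp2, Bmp4, Id3 and Bambi were also highest in IL-33 KO 1 and 3, as were Smad6, Dlx3, Msx1 and Msx2, and Grem1 was lowest in both. The part of muscle in these values was not tested. The adipocyte sum was 668 to 908 CPM in IL-33 KO and 161 to 673 in WT, lowest in WT 1. Follicle bulge (624 to 799 against 375 to 715 CPM), basal keratinocyte (21883 to 30861 against 25984 to 41433), suprabasal (10655 to 24886 against 18986 to 36360), wound keratinocyte (19686 to 31679 against 23442 to 52965) and sebaceous sums (1558 to 2804 against 845 to 3047) overlapped between the genotypes. The keratinocyte markers had lower means in IL-33 KO in 6 of 6 basal, 8 of 8 suprabasal and 7 of 7 wound genes (median log2 fold change -0.076, -0.55 and -0.62). In edgeR 0 of these passed, and 1 suprabasal gene, Krtdap, reached an unadjusted p under 0.05, where 4.15% of all genes were lower at this limit.

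**Figure D4:**
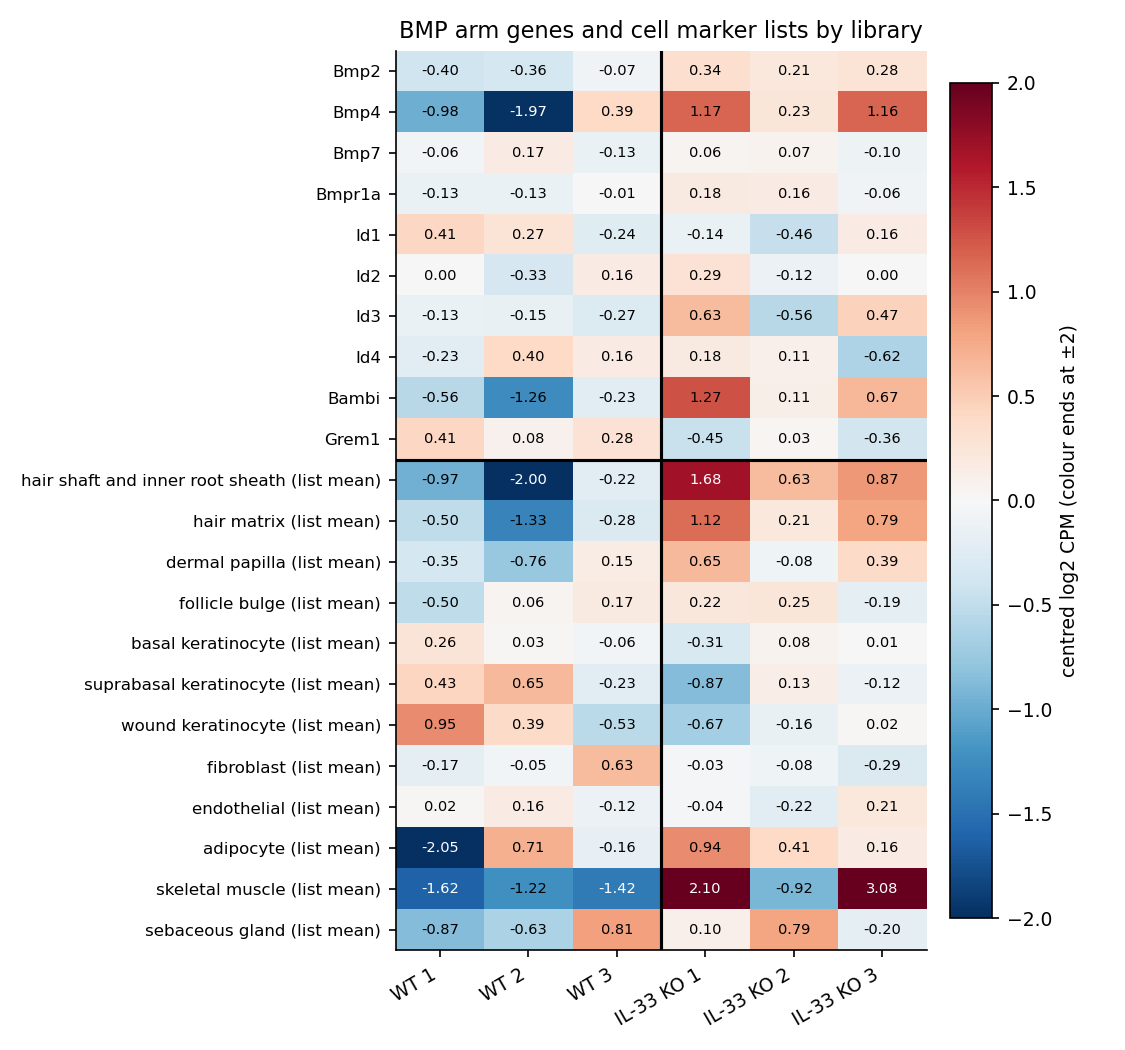
Log2 CPM minus the mean of the 6 libraries for the 10 genes (upper rows) and as list means for the cell marker lists (lower rows), with WT libraries in the left columns and IL-33 KO in the right. Bambi, Bmp4 and Id2 share with the hair shaft, hair matrix and dermal papilla rows the lowest value in WT 2 and the highest in IL-33 KO 1, over a range of -0.33 to 0.29 for Id2.

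For the 3 genes with the smallest p, the genes with the most similar profile over the 6 libraries were looked up among 14231 others with a mean of at least 1 CPM, by the root mean square difference of centred log2 CPM. Wnt10b, a Wnt ligand gene of the hair matrix, was nearest to Bambi at 0.088, followed by Nhs at 0.12 and the melanosome gene Pmel at 0.13, where the median over all genes was 0.85. Nearest to Bmp2 were Myef2 (0.043), the Wnt transcription factor gene Tcf7 (0.070) and the prostaglandin receptor gene Ptger1 (0.075), where the median was 0.37. Nearest to Grem1 were Tmem177 (0.082), Spats2l (0.084) and Ociad2 (0.091), where the median was 0.37. The nearest of 14231 genes lies below the median distance in any case. The 3 genes were picked by their p between the genotypes, so near profiles share that split. These distances are descriptions over 6 libraries.

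Reads of genes that overlap on the other strand cannot be told apart where strand is not stated. The partner counts come from the same assignment, so they cannot show how many partner reads went to the BMP arm genes. Over all 6 libraries Gm15222 and Gm15217, which overlap Bmp4, had 19 and 5 counts, Gm17110, which overlaps Bmpr1a, had 28, and A330033J07Rik, which overlaps Id4, had 74. Bmp4 itself had a total of 803 counts in IL-33 KO and 306 in WT.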

How the data were processed

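The authors deposited read counts per gene and FPKM values for the same genes. The submitters' processing notes name STAR, RSEM and mm10; versions, annotation and strand setting are not given in the sources used here. The deposited FPKM equals count over listed length and column total, to a relative difference of 2.782e-07. Groups and replicate numbers come from the titles. The test was that of edgeR 4.0.16 under R 4.3.3, on the counts as deposited (filterByExpr, TMM, glmQLFit and glmQLFTest, two-sided, Benjamini-Hochberg over all 15720 tested genes), with SE derived from the F statistic. The biological coefficient of variation was 21.3%. Alternatives were DESeq2 1.42.0, limma 3.58.1 (voom, and trend on log2 FPKM with pseudocounts of 1 and 0.1), other scalings and filters, a replicate block and each library left out. The edgeR fit was tested on simulated data. No 2 libraries agreed within sampling noise (chi-square per degree of freedom at least 33.7). All 10 positions overlap GENCODE M21. Members and lists were chosen with earlier results of these data known. Genes named by rule are the 10 members, Il33, any passing gene of a pathway list or, with none, its 2 genes of smallest p, and the 3 nearest profiles of 3 members. Krt5, Krt14, Col1a1 and Pecam1 are named as tissue markers, and Crabp1 and Prdm1 as the most abundant dermal papilla markers. Further genes were named after their values were seen, among them Hey1, Dlx5, Msx1, Msx2, Lef1, Corin, Alpl, Wif1, Hhip and Krtdap. Promoter windows are RefSeq's.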

Additional observations from a re-analysis of the deposited data

How the results depend on the processing

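Over 18 alternatives, 7 of the 10 genes kept the direction of their log2 fold change in all. Bmp7 (-0.047 to 0.11), Id2 (-0.017 to 0.23) and Id4 (-0.35 to 0.012) turned when single libraries were left out, and their values did not pass. Bambi and Bmp2 had an unadjusted p under 0.05 in 18 of 18 alternatives, Grem1 in 17 and Bmp4 in 14. These alternatives reuse the same 6 libraries and are not independent. In the main edgeR fit 9.02% of all genes met this limit, and without WT 3 1445 higher and 1305 lower of 15991 genes did. The number of the 10 genes past the adjusted threshold was 1 in DESeq2 (Bambi) and 0 in the others, including each fit without 1 library, where the lowest and highest counts were both 0. Genes without overlap numbered 3 to 6 of the 10 when 1 library was left out. They numbered 6 without WT 3 (36.5% of all genes) and 5 without IL-33 KO 2 (22.8%). Over all genes, 3 passed (2 higher, 1 lower), against 5 with upper quartile scaling, with total counts (4 higher and 1 lower in both) and with at least 1 CPM in 3 libraries, 33 without a filter, 206 in DESeq2 (159 higher, 47 lower), 11 in limma-voom, 15 with log2(FPKM + 1), 11 with log2(FPKM + 0.1), 6 with unfiltered FPKM, and 2 to 24 without 1 library, the highest without WT 3 and 10 without IL-33 KO 2. At an unadjusted p under 0.05 the split was 765 higher and 653 lower, and 906 and 334 with total counts. With the replicate block 2 genes passed and 0 of the 10. The numbers share no pairing in the labels, and the correlations of same-numbered deviations were -0.26, -0.12 and -0.38, with 0 of 6 libraries closest to their own number. Only 3 libraries per genotype and the low counts of Bmp4 in WT (35 to 209) limit the precision.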

Other observations

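Ratios within a library do not depend on library scaling, and 4 were computed in FPKM after the values of the genes were seen. They are given as values with no test. The ratio of the ligand gene Bmp2 to the inhibitor gene Grem1 was 0.566, 0.370 and 0.509 across IL-33 KO 1 to 3, against 0.185, 0.241 and 0.255 across WT 1 to 3. The groups did not overlap, and both genes contributed, as Bmp2 was higher and Grem1 lower in IL-33 KO. The ratio of Bmp4 to Grem1 was 0.977, 0.363 and 0.908 across IL-33 KO 1 to 3, against 0.118, 0.0725 and 0.340 across WT 1 to 3, so that IL-33 KO 2 stood just above WT 3. The ratio of the pseudoreceptor gene Bambi to the receptor gene Bmpr1a was 0.290, 0.131 and 0.226 across IL-33 KO 1 to 3, against 0.1003, 0.0615 and 0.117 across WT 1 to 3, again without overlap. The ratio of Bmp4 to Bmp7 was 0.289, 0.149 and 0.319 across IL-33 KO 1 to 3, against 0.0690, 0.0288 and 0.191 across WT 1 to 3, and here WT 3 lay above IL-33 KO 2.

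The hair shaft and inner root sheath levels differed less between WT 3 and the IL-33 KO libraries than those of WT 1 and WT 2 did, and Bmp4, Bambi and Smad6 were each highest in WT 3 among the WT libraries. Leaving out WT 3 gave the largest log2 fold changes of Bmp4 (2.36), Bambi (1.64) and Bmp2 (0.66) among the alternatives run. Over all genes it gave 1445 higher and 1305 lower at an unadjusted p under 0.05 in edgeR, against 765 and 653 with all libraries. Genes without overlap were 36.5% of all genes without WT 3, 19.9% to 28.6% without any other single library, and 13.9% with all libraries. The part of hair follicle content in these values was not tested.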
